A study of Mus musculus with 6 samples.

Results

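Lysophosphatidic acid (LPA) is a signalling lipid, and the genes examined here encode its receptors and the enzymes that make it and break it down outside the cell. The set held 8 genes: the receptors Lpar1, Lpar2, Lpar3, Lpar4 and Lpar6, the LPA-producing enzyme autotaxin (Enpp2), and the LPA-degrading phosphatases Plpp1 and Plpp3. Of these, 6 had a value among the 22180 genes of the table. The rule took, for each gene, the probe with the highest mean over the 6 arrays among probes annotated to that gene alone, and each of the 6 genes had exactly 1 such probe, so the only measured values that entered the rule, the mean levels, decided nothing between probes. The genes themselves were chosen by name as a functional set, with results of these arrays already known. Enpp2 was not analysed here, and so the results cover receptors and phosphatases but not autotaxin itself. Lpar6 lies inside Rb1 in the RefSeq annotation, its 2 probes are annotated to both genes, and it was not analysed here.

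Expression was measured in whole hearts of mice of mixed C57BL/6 x 129S6 strain on 6 single-colour Affymetrix arrays, 1 heart sample each. The 3 transgenic hearts carried Nkx2.5-Cre together with R26R-miR302-367, a Cre-dependent allele at the Rosa26 locus from which the miR-302 and miR-367 microRNAs are overexpressed. The 3 control hearts carried Nkx2.5-Cre alone, so Cre was present in every heart. Nkx2.5-Cre acts in cardiac progenitors, so its descendants carry the active transgene while other cells of the heart need not. The source name and harvest protocol give an age of 14 days after birth, whereas the age field reads E14. No label says that the samples came from separate animals, so part of the spread behind the p-values may be technical. Transgenic 1, transgenic 3 and control 2 expressed Xist, and the other 3 hearts expressed Y-linked genes. The 10 cardiomyocyte markers had mean log2 levels of 12.14 to 12.27 in transgenic and 11.96 to 12.17 in control hearts. The microRNA gene Mir302c averaged 9.98 ± 0.017 on the log2 scale in transgenic hearts and 3.37 ± 0.34 in control hearts (SD, n = 3 each), with no overlap between the groups. In whole-heart RNA, fewer cells of a type and less RNA per cell cannot be told apart. The number of arrays limits the precision.

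Autotaxin is a secreted enzyme that cuts lysophosphatidylcholine to release LPA near the cell surface. LPA then acts on G protein-coupled receptors. Lpar1, Lpar2 and Lpar3 belong to the same receptor family as the receptors for sphingosine 1-phosphate (S1P), while Lpar4 and Lpar6 are closer to purine receptors. Through their G proteins these receptors raise calcium, lower cyclic AMP or drive actin assembly and the transcription factors SRF and YAP. Plpp1 and Plpp3 are membrane enzymes whose active site faces outward. They end the signal by removing the phosphate from LPA and S1P.

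The miR-302 and miR-367 cluster is the transgene that separates the groups, so 4 of its mature microRNAs from 3' arms are shown, with the seed (bases 2 to 8) in capitals, from RefSeq, build GRCm38.p6.
miR-302b-3p: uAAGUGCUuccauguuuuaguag
miR-302d-3p: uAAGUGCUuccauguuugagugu
miR-302c-3p: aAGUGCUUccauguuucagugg
miR-367-3p: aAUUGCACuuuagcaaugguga
The seed of miR-302b-3p and miR-302d-3p is the same. The listed miR-302c-3p starts 1 base further in, which shifts its seed by 1 base, and miR-367-3p has another seed. The cluster also holds miR-302a-3p, which is named only.

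The 250 bases before the RefSeq start are shown for Lpar3 and Plpp3, whose transcript levels differed between the groups. Capitals mark matches to the GC box GGGCGG on either strand.
Lpar3 upstream, chr3:146220711-146220960, plus strand: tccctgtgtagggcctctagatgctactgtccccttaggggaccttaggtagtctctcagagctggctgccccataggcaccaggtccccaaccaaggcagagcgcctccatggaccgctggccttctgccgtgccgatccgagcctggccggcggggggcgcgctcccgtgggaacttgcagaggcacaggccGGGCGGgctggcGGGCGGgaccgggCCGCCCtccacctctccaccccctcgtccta
Plpp3 upstream, chr4:105157097-105157346, plus strand: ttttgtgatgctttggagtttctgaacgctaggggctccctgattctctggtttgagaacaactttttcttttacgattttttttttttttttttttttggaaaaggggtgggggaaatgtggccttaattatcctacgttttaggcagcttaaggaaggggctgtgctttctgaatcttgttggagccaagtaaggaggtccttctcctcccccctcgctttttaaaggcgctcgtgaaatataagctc
Both strands were searched for 7 motifs. These were the core promoter box TATAAA, the GC box named above, the motif AGATAA of the zinc finger factor Gata4, the motif CATTCC of the YAP partners, the E-box CANNTG, the MEF2 site and the SRF CArG box. The last 3 read alike on both strands, and no matches of different motifs overlapped in the windows shown. The Lpar3 window held 3 matches to the GC box and 0 to the other motifs. Of 32851 RefSeq windows of this length, 32.7% held a GC box. The Plpp3 window held 0 matches to any of the 7. The GC content was 69.6% for Lpar3 and 42.4% for Plpp3, against a median of 52.4% over all windows. GC boxes also lay in windows of Lpar1, Lpar2 and Lpar4, whose transcripts did not pass the test described below. The GC content was 64.4% for Lpar2 and 43.6% for Lpar4. Plpp1 had no window among the sequences used here. A relation between these windows and the direction of change was not tested. A match is only a run of letters and was not tested as a binding site.

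Of the 6 measured genes, Lpar3 was higher in transgenic hearts, Plpp1 and Plpp3 were lower, and Lpar1, Lpar2 and Lpar4 did not pass the test. The comparison used limma across all 22180 genes with Benjamini-Hochberg adjustment and a threshold of 0.05 on adjusted p. Each difference is the transgenic mean minus the control mean in log2 units. Among all genes tested, 11.1% passed, 5.35% higher and 5.76% lower. The groups did not overlap for the same 3 genes, against 30.9% of all genes. The median difference was -0.05 over the 6 genes and -0.03 over all genes. The 6 genes were chosen with earlier results of these arrays known, so these counts are a description.

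**Figure D1:**
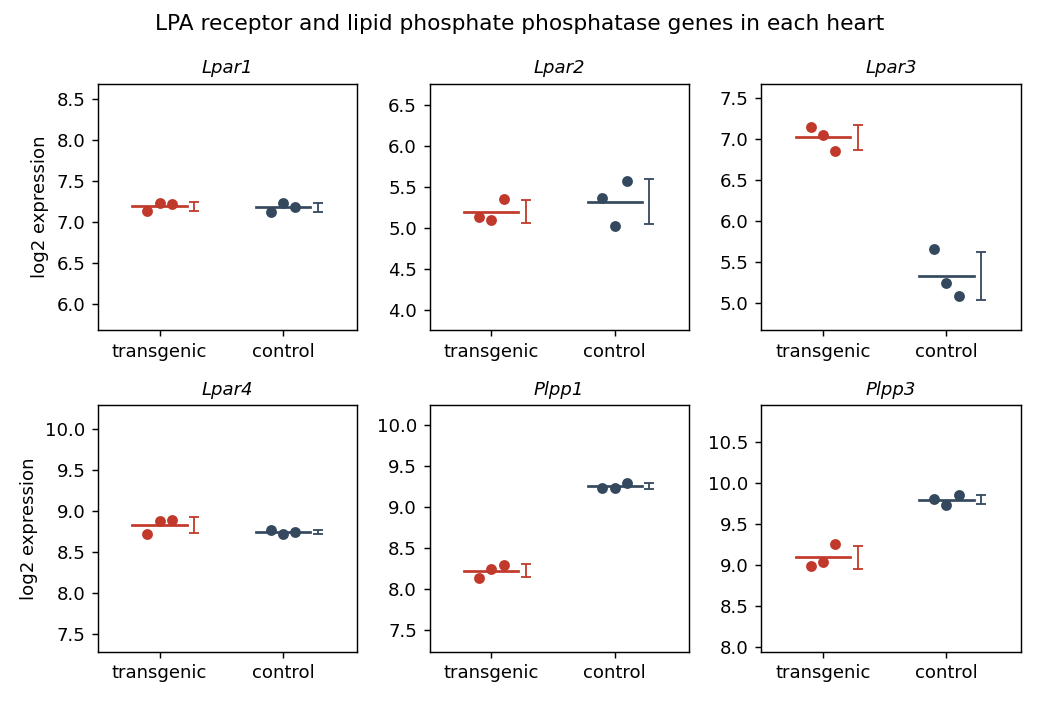
Log2 expression of each measured gene (vertical axis, each panel spanning the same 3 log2 units) in the transgenic hearts (left, red) and control hearts (right, blue). Points are single heart samples, horizontal lines are group means and bars are the SD with n = 3. The groups are apart for Lpar3, Plpp1 and Plpp3 and overlap for Lpar1, Lpar2 and Lpar4.

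Lpar3 encodes a receptor that couples to calcium and cyclic AMP signalling and is known in mice for its part in embryo implantation in the uterus. Its log2 value was 7.15, 7.05 and 6.86 in transgenic hearts, against 5.66, 5.24 and 5.09 in control hearts. The lowest transgenic heart was more than 1 log2 unit above the highest control heart. The means were 7.02 ± 0.15 in transgenic and 5.33 ± 0.30 in control hearts (SD, n = 3 each), a difference of 1.69 with an SE of 0.15, or 3.23-fold (limma adjusted p = 0.000426). By size of rise, Lpar3 stood at rank 22 of 22180 genes. Its spread within groups was wide for this table, with a pooled SD of 0.23 against a median of 0.13 over all genes. Its mean in control hearts lay below the medians of the arrays, which ran from 5.45 to 5.54, and no detection calls were used here to say whether it was above background there.

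Lpar1, the receptor through which LPA drives fibroblast and nerve sheath cell responses, had log2 values of 7.13, 7.23 and 7.22 in transgenic hearts, against 7.13, 7.23 and 7.18 in control hearts. The groups overlapped almost fully, and the difference was 0.01 with a 95% interval of -0.17 to 0.20 (limma adjusted p = 0.942). It was among the steadiest genes of the table, with a pooled SD of 0.05 at percentile 6.32 of all genes.

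Lpar2, a receptor best known in epithelial and immune cells, had log2 values of 5.14, 5.10 and 5.36 in transgenic hearts, against 5.36, 5.03 and 5.58 in control hearts. The difference was -0.12 with a 95% interval of -0.45 to 0.20 (limma adjusted p = 0.659). This interval is the widest among the 3 receptors that did not pass, and Lpar2 lay at percentile 37.2 of mean level over all genes.

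Lpar4, an X-linked receptor that acts in blood and lymphatic vessel formation in mice, had log2 values of 8.73, 8.88 and 8.89 in transgenic hearts, against 8.77, 8.72 and 8.74 in control hearts. Transgenic 1 lay among the controls and the other 2 transgenic hearts lay above them. The difference was 0.09 with a 95% interval of -0.11 to 0.28 (limma adjusted p = 0.589).

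The 95% interval of the Lpar3 difference, 1.35 to 2.03, lay wholly above the intervals of Lpar1, Lpar2 and Lpar4, whose highest upper bound was 0.28. The differences between receptors were not tested further.

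Plpp1, a broadly expressed phosphatase of the cell surface, had log2 values of 8.14, 8.24 and 8.30 in transgenic hearts, against 9.23, 9.23 and 9.29 in control hearts. Every transgenic heart was below every control heart, with a narrow spread in both groups. The means were 8.22 ± 0.08 in transgenic and 9.25 ± 0.036 in control hearts (SD, n = 3 each), a difference of -1.03 with an SE of 0.085, which is 2.04-fold lower (limma adjusted p = 0.000318). By size of fall it stood at rank 106 of 22180 genes.

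Plpp3, the phosphatase that mouse embryos need for vessel formation and that degrades LPA in endothelium, had log2 values of 9.00, 9.04 and 9.26 in transgenic hearts, against 9.80, 9.74 and 9.85 in control hearts. The groups did not overlap, and transgenic 3 was nearest to the controls. The means were 9.10 ± 0.14 in transgenic and 9.80 ± 0.056 in control hearts (SD, n = 3 each), a difference of -0.70 with an SE of 0.098, which is 1.63-fold lower (limma adjusted p = 0.00312). It stood at rank 298 by size of fall.

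**Figure D2:**
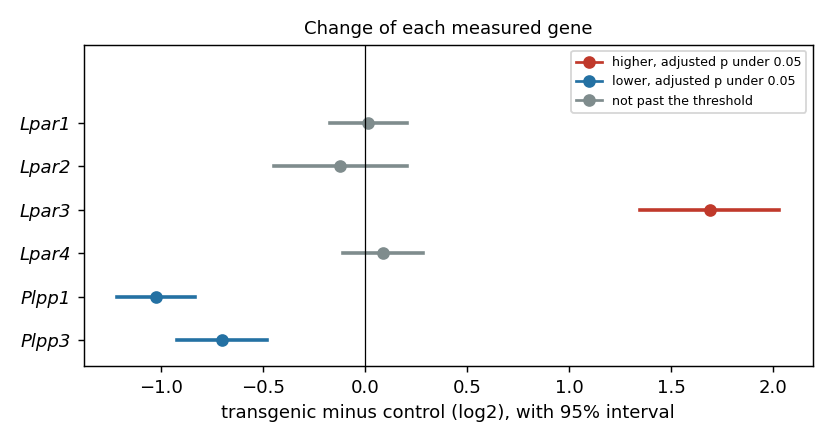
Difference of each measured gene between transgenic and control hearts on the log2 scale (horizontal axis), with points for the limma estimates and bars for their 95% intervals. Lpar3 lies at 1.69, Plpp1 at -1.03 and Plpp3 at -0.70, while the intervals of Lpar1, Lpar2 and Lpar4 include 0.

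Since the hearts differ in sex, the fit was repeated with sex as a term. The differences were then 1.72 for Lpar3 (limma adjusted p = 0.00123), -1.02 for Plpp1 (0.00119) and -0.70 for Plpp3 (0.00855). Among hearts with Y-linked transcripts, Lpar3 was 7.05 in the single transgenic heart, against 5.66 and 5.09 in the controls. Among hearts with Xist, it was 7.15 and 6.86 in transgenic hearts, against 5.24 in the single control. Among these hearts, Lpar3 was higher in the transgenic ones of either sex.

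None of the nearest measured genes on the chromosome passed the test. Beside Lpar3, Mcoln2 had a difference of -0.11 and Gm10636 one of -0.06. Beside Plpp1, Slc38a9 had 0.03 and Dhx29 -0.12, and Mtrex, which overlaps Plpp1 in the RefSeq annotation, had -0.01. Beside Plpp3, Prkaa2, a catalytic subunit of AMP-activated kinase, had 0.20 and Usp24 -0.01. The limma adjusted p of these 7 genes ran from 0.205 to 0.968.

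The genes whose centred log2 values over the 6 arrays lay nearest to those of Lpar3, by Euclidean distance, were Bex4, at a distance of 0.341, the cyclin-dependent kinase subunit Cks2, at 0.376, and the Notch effector Hey2, at 0.425. Nearest to Plpp1 were Tmem50b (0.106), Tesc (0.144), a calcineurin-related calcium-binding protein, and the small heat shock protein gene Hspb6 (0.15). Nearest to Plpp3 were Pfkm (0.111), muscle phosphofructokinase, the monoamine oxidase gene Maob (0.137) and Tcp11l2 (0.139). With 6 arrays in 2 groups, any gene with a difference of like size comes close, so the distances only describe.

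Among relatives of Plpp1 and Plpp3, members passed in both directions. Of 10 other genes of the lipid phosphate phosphatase family, 3 rose and 1 fell, with a median difference of 0.06. For this and the later list counts, 5.35% of all genes rose and 5.76% fell. Plpp2, the third phosphatase of the cell surface, had log2 values of 6.70, 6.87 and 7.11 in transgenic hearts, against 6.20, 6.17 and 6.19 in control hearts. Every transgenic heart was above every control heart, with a difference of 0.71 and an SE of 0.11 (limma adjusted p = 0.00529). Plpp2 rose while Plpp1 and Plpp3 fell. Plppr1, a neuronal family member without known phosphatase activity, had values of 7.04, 6.81 and 7.08 in transgenic hearts, against 6.00, 5.65 and 6.08 in control hearts, a difference of 1.07 (limma adjusted p = 0.00177). Plppr2 rose by 0.41 (0.0265), a call lost without transgenic 1, transgenic 3, control 1 or control 2, when every probe was fitted and with sex as a term, and with adjusted p-values up to 0.0978. Plpp7, a family member of the nuclear envelope in muscle, fell by 0.50 (0.00643). Plpp6 had a difference of -0.17 (0.242) with groups that did not overlap.

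Of 6 genes listed for LPA supply outside autotaxin, 1 passed. Which lysophospholipids their products yield in these hearts was not measured. Pla1a, a phospholipase that yields lysophospholipids, fell by 0.56 (limma adjusted p = 0.0331), and 0 genes rose. That call was lost without transgenic 2, transgenic 3, control 2 or control 3, when every probe was fitted and with the replicate block, with adjusted p-values up to 0.12. Agk, a mitochondrial lipid kinase, had a difference of -0.14 (0.375). The median of the 6 genes was -0.0021.

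Enzymes that make or use LPA inside the cell, or act further on the way to glycerolipids, were lower where they passed. Of 13 measured, 4 fell and 0 rose, with a median of -0.18. Gpam, the mitochondrial acyltransferase that makes LPA from glycerol 3-phosphate, fell by 0.71 (limma adjusted p = 0.0024). Agpat2, which turns LPA into phosphatidic acid, fell by 0.79 (0.00211), and Lpin1, which turns phosphatidic acid into diacylglycerol, fell by 0.80 (0.00418). Acp6, a mitochondrial LPA phosphatase, fell by 0.39 (0.0255), a call lost without transgenic 1, transgenic 2, control 1 or control 2, when every probe was fitted and with the replicate block, with adjusted p-values up to 0.103. Agpat3 and Agpat5 had differences of -0.30 (0.0507) and -0.29 (0.106).

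The related S1P receptors and enzymes mostly did not pass, with 1 of 12 higher and 1 lower and a median of -0.11. S1pr3, a receptor of the same family as Lpar3, had log2 values of 9.62, 9.78 and 9.67 in transgenic hearts, against 9.25, 9.14 and 8.94 in control hearts. It rose by 0.58 (limma adjusted p = 0.00914). Spns2, the S1P exporter of endothelium, fell by 0.40 (0.047), a call lost under 7 of 15 alternatives, among them without transgenic 1, transgenic 2, control 1 or control 2. Of the other receptors reported to answer LPA, P2ry10, which neighbours Lpar4 on the X chromosome, had a difference of -0.32 (0.054) and Gpr35 one of 0.11 (0.698). P2ry10 was dim, at percentile 6.35 of mean level over all genes. By limma 0 of these 2 receptors passed, with 1 at an unadjusted p under 0.05, and 1 fell with renewed quantile normalization, with array weights or without control 3.

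Of 17 genes listed for the SRF and YAP response to LPA, 1 rose and 2 fell, with a median of -0.17. They include the regulators Srf, Mrtfa and Mrtfb besides genes listed as targets. Whether each listed gene, such as Il6, depends on SRF or YAP in these hearts was not tested. Cnn1, the smooth muscle calponin, rose by 1.41 (limma adjusted p = 0.000967). Fos fell by 0.58 (0.0116), a call lost without transgenic 1 or transgenic 2, with adjusted p-values up to 0.0551. Acta2, smooth muscle actin, fell by 0.52 (0.0223), a call lost without transgenic 1 or transgenic 3 and when every probe was fitted, with adjusted p-values up to 0.0883. A further 4 genes had groups that did not overlap and did not pass, Il6 at -0.30 (0.051), Junb at -0.17 (0.25), Tagln at -0.19 (0.327) and Srf itself at -0.098 (0.511). In all, groups did not overlap for 7 of the 17 genes, against 30.9% of all genes. Il6 was dim, at percentile 4.95 of mean level over all genes. Of the YAP targets, Ankrd1 had a difference of 0.40 (0.198), Ccn1 one of -0.27 (0.383) and Ccn2 one of -0.18 (0.717), and none passed. Over the 6 lists, 14 of 60 measured genes passed, 5 higher and 9 lower, against 11.1% of all genes passing.

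**Figure D3:**
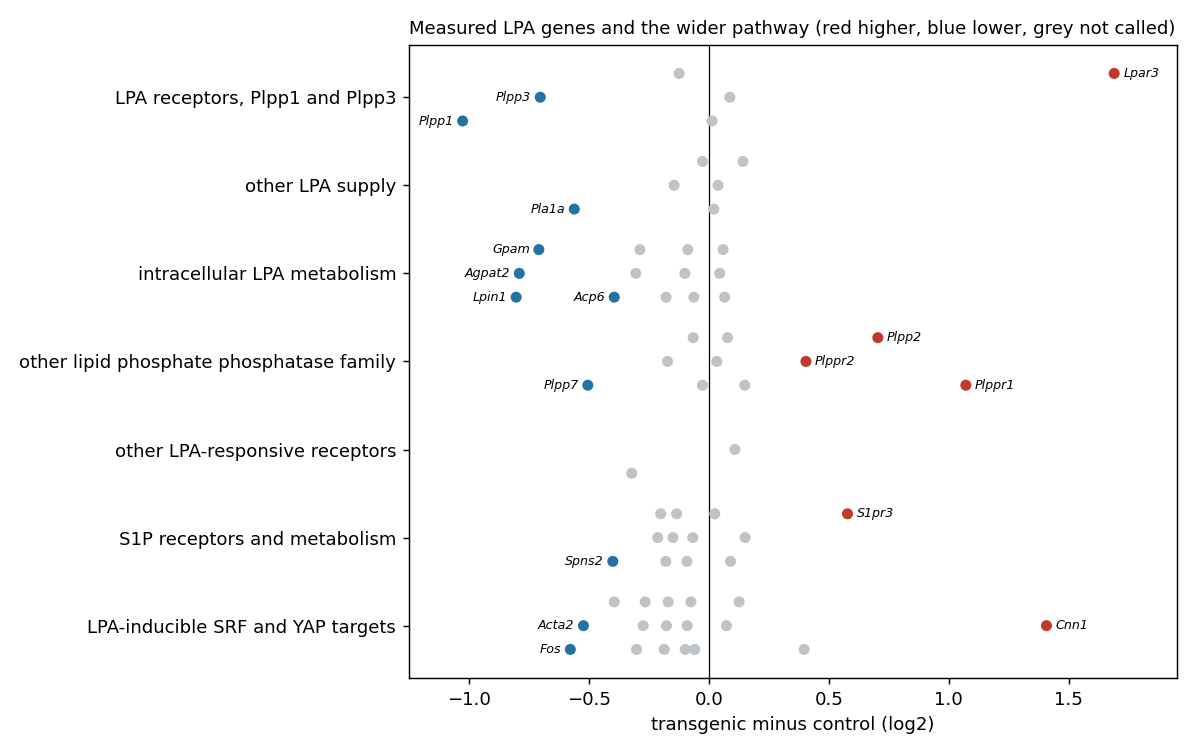
Differences between transgenic and control hearts on the log2 scale (horizontal axis) for the 6 measured genes (top row) and for each list of related genes below. Each point is a gene, named where it passed an adjusted p of 0.05, with red for higher, blue for lower and grey for not past the threshold. Lpar3, Cnn1 and Plppr1 lie farthest right, and Plpp1 farthest left.

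Marker genes of other heart cells moved with the groups too. All 12 endothelial markers had negative differences, with a median of -0.41, and 8 fell and 0 rose, against 5.76% of all genes falling. Their mean log2 level ran from 8.71 to 8.83 in transgenic and from 9.12 to 9.26 in control hearts. The count of fallen endothelial markers was 2 without transgenic 1, without transgenic 2 or without control 1, and 5 without transgenic 3 or control 2 and when every probe was fitted. Of 10 macrophage markers 7 fell and 0 rose, with a median of -0.62 and mean levels of 6.18 to 6.37 in transgenic and 6.88 to 6.94 in control hearts. Of 7 mural cell markers 3 fell and 0 rose, with a median of -0.26 and mean levels of 8.72 to 8.94 in transgenic and 9.05 to 9.14 in control hearts. Kcnj8 fell by 0.68, Rgs5 by 0.65 and Pdgfrb by 0.38. The Pdgfrb call was lost under 8 of 15 alternatives, and the Rgs5 call when a gene's probes were averaged. Cspg4 had a difference of 0.33 (limma adjusted p = 0.0606) with groups that did not overlap. Both Plpp1 and Plpp3 fell by more than the endothelial median, and 1 of the 12 endothelial markers, Ly6c1, fell by more than either, by 1.23. Plpp3, which fell by 0.70, lay close to the macrophage median, and the macrophage markers C1qb, Csf1r and Mrc1 fell by more than Plpp3, by 0.96, 0.94 and 0.82, and by less than Plpp1. Among mural markers, Kcnj8 and Rgs5 fell by nearly as much as Plpp3 and Pdgfrb by less. The part of these cell types in the fall of Plpp1 and Plpp3 was not tested.

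Of 10 fibroblast markers, Postn rose by 0.33 (limma adjusted p = 0.045), a call lost under 11 of 15 alternatives, among them without any 1 of the 6 hearts, and Fbln1 fell by 0.90 (0.00383), with mean levels of 8.91 to 9.02 in transgenic and 8.87 to 9.08 in control hearts. Cardiomyocyte markers had 1 of 10 higher, the atrial light chain Myl7, at 10.69 ± 0.60 in transgenic and 9.19 ± 0.78 in control hearts (SD, n = 3 each, limma adjusted p = 0.0415), a call lost under 6 of 15 alternatives, among them without transgenic 2, transgenic 3 or control 2. Of 6 epicardial and mesothelial markers 1 fell, Msln by 0.58 (0.0364). That call was lost without any 1 of the 6 hearts and when every probe was fitted. The list median was -0.38, with 5 differences below 0. By limma, all 6 had an unadjusted p under 0.05, against 5633 of 22180 genes. Aldh1a2 went the other way, at 0.22 (0.18), with groups that did not overlap. Both measured Schwann cell and neural markers, Sox10 and S100b, fell, by 0.55 and 0.46, the S100b call being lost without control 1 or any 1 transgenic heart and when every probe was fitted. Both were dim, at percentiles 34.0 and 22.4 of mean level over all genes. Of 4 lymphatic markers 1 fell, Lyve1 by 0.59 (0.00722), with a list median of -0.08. Flt4 had a difference of -0.29 (0.142), Prox1 one of 0.19 (0.225) and Pdpn one of 0.13 (0.419). The Prox1 groups did not overlap. Of 5 lymphocyte and 4 adipocyte markers 0 passed by limma, with 1 in each list at an unadjusted p under 0.05. Erythroid markers were not analysed here. The part of these cell types in the rise of Lpar3 was not tested.

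**Figure D4:**
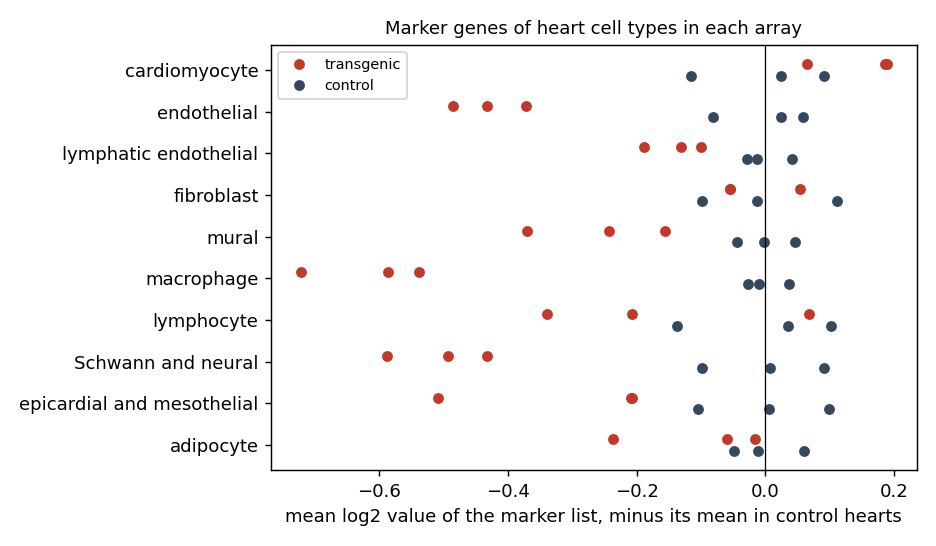
Mean log2 value of each cell type's marker genes in each heart, minus the mean of that list over the control hearts (horizontal axis), for transgenic hearts (red, upper row of each list) and control hearts (blue, lower row). The endothelial, lymphatic, epicardial, mural, macrophage and neural lists lie to the left in all 3 transgenic hearts, while the fibroblast list overlaps. Of the 4 lymphatic markers, 2 had negative differences.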

How the data were processed

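Total RNA of the 6 mouse heart samples was reverse-transcribed from poly(T), amplified and biotin-labelled, per the labels' protocols. The deposited values are the authors' log2 expression values for every probe. RMA, oligo and limma are named, without versions, in the submitters' processing notes. For genome build and probe filter, nothing is given in the sources used here. Of 41345 probes, 23521 carry 1 gene symbol in the platform annotation, 1814 several and 16010 none. The probe with the highest mean over 6 arrays was used for each of 22180 genes. Array medians ran from 5.45 to 5.54.

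The test was limma's moderated test (version 3.58.1, R 4.3.3) without covariates. Adjustment by Benjamini-Hochberg covered every gene tested, and the threshold was 0.05. The procedure was tested on simulated data with 50 genes changed at each size. It recovered 0% of 1.25-fold, 50% of 1.5-fold, 78% of 2-fold and 100% of 4-fold changes, and called 7 unchanged genes. Far fewer genes were changed there than the 2465 called in the data. The adjustment was therefore stricter in the simulation, and its recovery may be lower than in the data. A gene that did not pass can thus still differ. The members, lists and tests were chosen with earlier results of these data known. Of 64 genes on the 6 related lists, 60 were measured, and 1 further list is not reported here. Named were all measured members, called list genes, up to 3 uncalled genes per list whose groups did not overlap, up to 3 markers per cell type, neighbours, and the nearest patterns, passing over Gm, Rik, LOC, Olfr and Vmn symbols. Gm10636 is named as a neighbour. Gpr35, Srf, Mrtfa, Mrtfb, Ankrd1, Ccn1, Ccn2, Cspg4, Flt4, Prox1, Pdpn and Aldh1a2 were chosen after their values were seen. Promoter and microRNA sequences are from RefSeq, build GRCm38.p6, where 6 of the 8 members matched the promoter table. Alternatives are given in the closing section.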

Additional observations from a re-analysis of the deposited data

How the results depend on the processing

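Lpar3 stayed higher, and Plpp1 and Plpp3 lower, past the threshold under all 15 alternatives, and the count of called members was 3 in each. The alternatives dropped a share of 0.333 of genes with the lowest means, averaged the probes of a gene, fitted every probe, normalized by quantiles again, centred the arrays on their medians, used an intensity trend with robust variance, array weights, the replicate block or a sex term, or left out each heart. Differences ran from 1.56 to 1.85 for Lpar3, from -1.06 to -0.98 for Plpp1 and from -0.78 to -0.65 for Plpp3, with the largest adjusted p at 0.00583, 0.00459 and 0.0186. Lpar1, at 0.01, turned to -0.059 with renewed quantile normalization and to -0.022 with centred arrays, and leaving out 1 heart gave -0.013 to 0.046. Lpar2, at -0.12, ran from -0.27 to 0.0030 when 1 heart was left out. Lpar1, Lpar2 and Lpar4 did not pass under any of the 15 alternatives. Some alternatives could not move a member's difference, only its SE and adjusted p. These were leaving out dim genes, averaging probes, fitting every probe, the intensity trend and the replicate block.

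The correlations of deviations of same-numbered hearts were 0.02, -0.13 and 0.01. These hearts were also of opposite sex by Xist and Y-linked transcripts, so the correlations cannot exclude shared handling. With the replicate block the 3 calls held, with adjusted p-values of 0.000628 for Lpar3, 0.00177 for Plpp1 and 0.00697 for Plpp3, and 11 in place of 14 list genes were called. The list count ran from 9 when every probe was fitted to 18 with array weights. Over all genes the count of calls was 2465, against 1212 when every probe was fitted, 1216 without transgenic 1, 1171 without transgenic 2, 1554 without transgenic 3 and 1378 without control 1. The small number of hearts limits precision, and without detection calls it is not known which dim probes were above background.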
